A study of Mus musculus with 29 samples.

Results

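The HRHnG line is a male line of mouse embryonic stem cells with a double reporter, and the comparison described here sets its differentiated cultures, called Diff, against the undifferentiated ESC cultures from which such differentiation starts. The members are 6 of the 29 arrays of the series, 3 of Diff and 3 of ESC, chosen by their titles and by nothing measured on them. Per the labels, Diff cells are differentiated to primitive endoderm, after 7 to 8 days in which Activin and CHIRON were given beside LIF, while ESC were kept in the inhibitor pair 2i with LIF. Activin is a ligand that signals through the receptors used by Nodal, CHIRON inhibits the kinase GSK3, and 2i blocks MEK and GSK3. The male line, its double reporter, LIF and inhibition of GSK3 are thus common to both groups. Mid (3 arrays of the same array set) is the same line as nEnd cultures at passage 7 to 10. The other groups used for comparison come from a second set of arrays: ADE (4 arrays), epiblast stem cells of the line spelled HRHNG differentiated for 4 days to anterior definitive endoderm, against those epiblast stem cells, EpiSC (3 arrays); and NACL (4 arrays, 2 of them of line HVMC), embryonic stem cells given Activin, CHIRON and LIF in N2B27 for at least 3 passages, against 2iL (3 arrays), 2i with LIF over as many passages. NACL and 2iL cells are of lines HVMC, E14 and E14-NanogGFP, a single array of each but for HVMC in NACL. Diff and ESC represent a single line, and the sources used here do not state what separates the replicates. The spread among their arrays may therefore be technical. The spread behind each p-value is that within groups over all 29 arrays, which hold other lines too. Whole cultures were lysed on the plate without a sort, so fewer cells of a type and less RNA per cell cannot be told apart.

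As background, naive embryonic stem cells correspond to the early epiblast of the blastocyst, and a network of transcription factors around Nanog, Klf and Esrrb family proteins holds them in that state. Primitive endoderm forms beside the epiblast when FGF signalling through ERK favours Gata6 over Nanog. It then gives rise to visceral endoderm, a nutritive epithelium rich in uptake receptors and lysosomes, and to parietal endoderm, which lays down a thick basement membrane. Definitive endoderm arises later, from the primitive streak under Nodal signalling, and shares several transcription factors with primitive endoderm.

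Levels are log2 signals of the array relative to its 75th percentile. A difference is Diff minus ESC on that log2 scale, with its standard error (SE, 3 arrays per group). That SE uses the spread within groups over all 29 arrays and can differ from what the 6 arrays alone would give. Levels of different genes come from different probes and are not set against each other. A gene was called when its limma p, adjusted by Benjamini-Hochberg over the 16332 genes tested, was under 0.05. At that threshold 3836 genes (23.5%) were higher in Diff and 3087 (18.9%) lower, 42.4% in all, and the arrays of the groups did not overlap for 56.3% of all genes. A count within a gene list is read against those shares. The median difference over all genes was -0.04. When each array was centred on its median instead, that median was 0.32 and the share of higher genes among those called was 74.1%, against 55.4% in the main scaling, so small falls depend on the scaling more than small rises do. The 6 arrays had 57.2% to 70.6% of probes well above background and no saturated probe. Arrays of both groups lay on slide 2 and were read on both scan days. Of the genes called, 99.6% had the same sign within slide 2, and 99.6% had it between Diff 3 and ESC 3, the pair read on the second day. Those arrays also entered the calls, so this agreement is in part built in and is no separate test. With slide as a block, 6437 genes were called, among them 82.7% of the genes called in the main fit. With scan day as a block, 6941 were called, among them 93.1% of those genes.

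**Figure D1:**
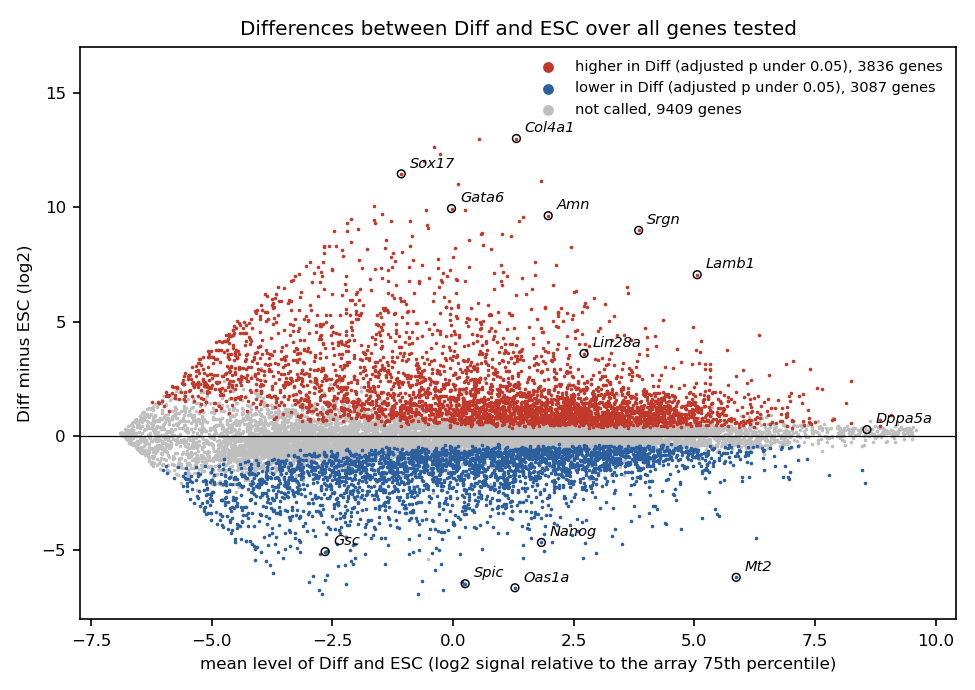
Each point is a gene: the x axis is the mean level of Diff and ESC and the y axis the difference, Diff minus ESC, both in log2 units. Red marks the 3836 genes called higher, blue the 3087 called lower. Rises reach further than falls, with 268 genes called above a difference of 5 and 43 below -5.

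Differences above 2 were called for 1364 genes and differences below -2 for 883. Among the genes called higher, 342 were not well above background on any ESC array, and among those called lower, 224 were not well above background on any Diff array. For such a gene the fold is a bound, written as at least N-fold, in which a dim array counts with its own value or, if that is larger, with the lowest signal found well above background there.

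The label of the Diff cultures was first set against transcription factors of primitive endoderm. Of 18 such genes tested, 15 were higher and 1 lower, with a median difference of 4.49, and the groups did not overlap for 16. Gata6, the factor that opposes Nanog in this lineage choice, stood at 5.09, 4.56 and 5.16 on Diff arrays 1, 2 and 3, against -5.49, -5.17 and -4.34 on ESC arrays 1, 2 and 3. Only 1 of the 3 ESC arrays was well above background for it, and the fitted difference was 9.94 ± 0.61 (SE, limma adjusted p = 1.2e-11). Gata4, its partner in visceral and parietal endoderm, read 4.79, 3.98 and 4.18 in Diff, against -2.30, -2.28 and -2.30 in ESC, a difference of 6.61 ± 0.41 (limma adjusted p = 1.3e-11). All Diff arrays were far above all ESC arrays for both factors.

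The SOX and forkhead factors of endoderm moved alongside. Sox17, an endoderm regulator of both extraembryonic and embryonic origin, read 5.32, 4.37 and 4.27 in Diff and -6.79, -6.23 and -7.38 in ESC, where no array was well above background, so it was at least 649-fold higher. Sox7, a relative expressed in primitive endoderm, read 3.21, 2.98 and 3.08 in Diff and -6.80, -6.40 and -5.89 in ESC, at least 219.6-fold higher. Foxa2, a pioneer factor of endoderm, read 4.68, 4.28 and 4.14 in Diff and -6.75, -4.96 and -4.80 in ESC, of which 1 array was well above background. Foxq1, a forkhead factor, read 4.97, 5.25 and 5.36 in Diff and -5.59, -3.73 and -4.72 in ESC, with a difference of 9.88 ± 0.55. All Diff arrays were far above all ESC arrays for these genes as well. Hnf4a, which drives epithelial and hepatic genes in visceral endoderm, read 2.88, 3.04 and 2.59 in Diff and -2.82, -2.83 and -4.03 in ESC, a difference of 6.06 ± 0.59. Of the relatives of Foxa2, Foxa3 rose by 4.65 ± 0.45 with 1 ESC array well above background, and Foxa1 was at least 5.52-fold higher. Tfec, a factor of the MITF family, was at least 41.5-fold higher, and Cited1, a transcriptional coactivator, rose by 4.34 ± 0.68.

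Not every factor on the list followed. Hhex, a homeobox factor of anterior visceral endoderm and liver bud, was not called: it read -0.16, 0.34 and 0.67 in Diff and -0.21, -0.08 and -0.45 in ESC, which overlap. Bhlhe40, a transcriptional repressor, read 2.21, 0.03 and 0.86 in Diff and -0.42, -0.38 and 0.40 in ESC (difference 1.17 ± 0.51, limma adjusted p = 0.073). Rhox5, a homeobox gene already bright in ESC, rose by 2.04 ± 0.50, and Klf6 by 1.71 ± 0.34. Creb3l3, a membrane-bound factor of hepatic genes, had a difference of 1.39 ± 0.50, and its call was lost without ESC 1, ESC 3, Diff 2 or Diff 3 (limma adjusted p 0.0522 to 0.0981).

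**Figure D2:**
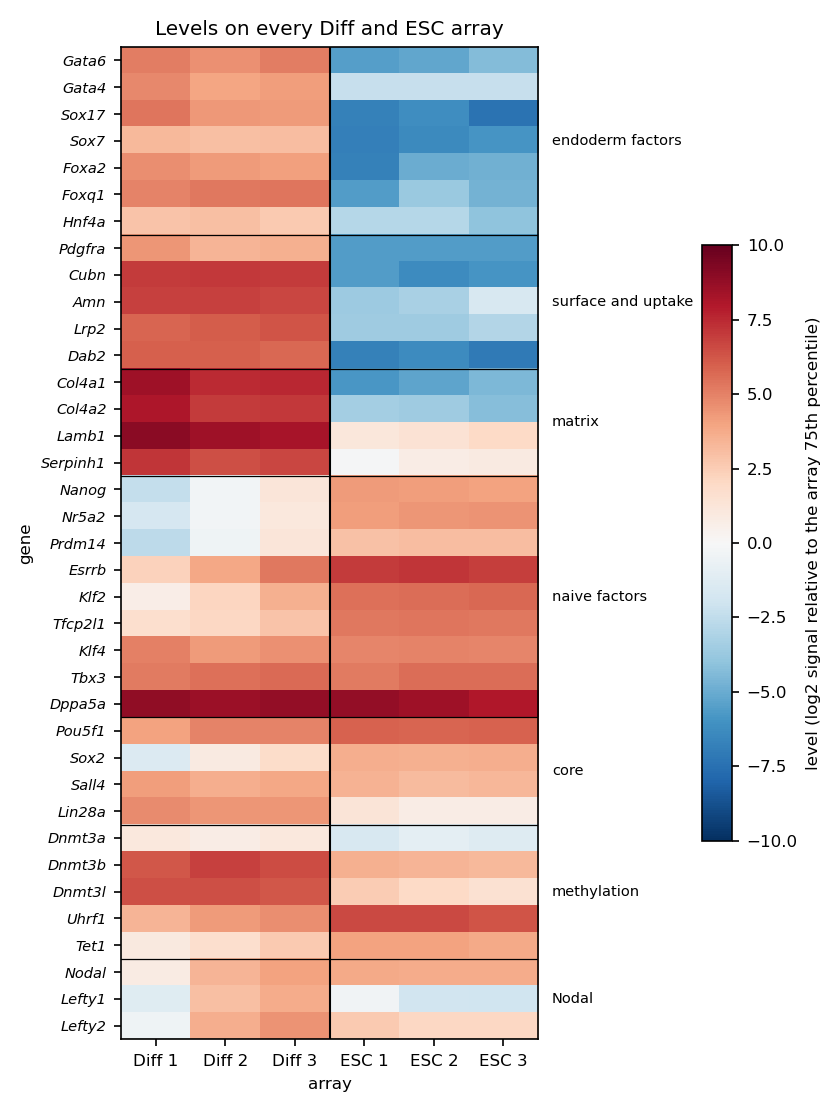
Levels (log2 signal relative to the array's 75th percentile, colour scale) of genes of 7 groups on each Diff and each ESC array, with Diff to the left of the line. Endoderm factors, uptake and matrix genes are high on all 3 Diff arrays, while several naive factors are lowest on Diff 1 and highest on Diff 3, and Klf4, Tbx3 and Dppa5a are bright in both groups.

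The surface and uptake proteins of primitive endoderm were among the genes with the largest differences. Of 21 further genes of this tissue, 19 were higher and none was lower, with a median difference of 6.25. Of 23 visceral endoderm genes, 18 were higher and none was lower, with a median of 4.39. Cubn, which encodes the uptake receptor cubilin, read 7.00, 7.05 and 7.03 in Diff and -5.62, -6.31 and -5.89 in ESC, and was at least 3357-fold higher. Its anchor amnionless, Amn, read 6.83, 6.85 and 6.67 in Diff and -3.61, -3.27 and -1.64 in ESC (difference 9.63 ± 0.40). Megalin, Lrp2, which binds ligands together with them, read 5.84, 6.03 and 6.32 in Diff and -3.56, -3.52 and -2.94 in ESC (9.40 ± 0.48). The Diff arrays were close to each other for all 3 receptor genes and far above every ESC array. Dab2, the adaptor that links these receptors to clathrin, read 5.95, 6.01 and 5.77 in Diff and -6.73, -6.30 and -7.07 in ESC, at least 1549-fold higher. Pdgfra, the receptor long used to mark the lineage, read 4.43, 3.41 and 3.56 in Diff and -5.57, -5.60 and -5.59 in ESC, at least 359.5-fold higher. Nid2, a basement membrane linker, and Fst, an Activin antagonist, were the 2 members not called, with Fst at 4.40, 1.66 and 2.30 in Diff and 2.80, 2.72 and 1.27 in ESC.

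Other genes with the largest bounds included Habp2, a secreted protease, at least 1519-fold higher, S100g, a calcium-binding protein of absorptive epithelia, at least 1098-fold, and Pdzd3, a scaffold protein of microvilli, at least 274.4-fold. Naip6, an innate immune sensor, was at least 268.6-fold higher, Timd2, a ferritin receptor, at least 266.9-fold, and Nrg2, an ERBB ligand, at least 244.6-fold. S100g read 6.19, 4.89 and 5.15 in Diff and -6.78, -6.15 and -6.90 in ESC. Among the genes well above background on all 6 arrays, the 10 largest rises were those of Col4a2, Amn and Lrp2 and those of the protease Ctsh (9.58 ± 0.54), the granule proteoglycan Srgn (8.99 ± 0.47), the hexokinase relative Hkdc1 (8.82 ± 0.49), the junction regulator Amot (8.74 ± 0.54), the Wnt inhibitor Dkk1 (8.55 ± 0.78), the peroxidase Pxdn (8.36 ± 0.46), which crosslinks collagen IV, and the water channel Aqp8 (8.26 ± 0.56). The Diff arrays lay above every ESC array for each of them, which the choice of these genes required.

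Of 24 genes of receptor-mediated uptake, these receptors among them, 17 were higher and 2 lower, with a median difference of 1.61. Lrpap1, the chaperone of megalin, rose by 3.76 ± 0.28, the recycling GTPase Rab11a by 2.59 ± 0.21 and the clathrin heavy chain Cltc by 1.44 ± 0.17. The vitamin uptake genes Folr1 (2.57 ± 0.37), Slc46a1 (1.89 ± 0.27) and Tcn2 (2.90 ± 0.40) rose too. Of these, only Lrpap1 was named by the rule on size, and the others were chosen after their values were seen. Fcgrt, a receptor for immunoglobulin G, fell by 3.99 ± 0.74 with 1 Diff array well above background. Lrp1, a broad scavenger receptor, was lower by the same threshold (difference -1.29 ± 0.39), but not without Diff 1 (-0.81, limma adjusted p = 0.104). Of 24 lysosomal genes, 17 were higher and none was lower, with a median of 1.35, and the rises were of moderate size apart from Ctsh. The cathepsins Ctsz and Ctsl rose by 3.18 ± 0.18 and 2.93 ± 0.20, the protease Lgmn by 2.87 ± 0.24 and the membrane protein Scarb2 by 1.95 ± 0.31. Tfeb, a transcription factor of lysosomal genes, read 0.60, -0.11 and 0.72 in Diff and 0.85, 0.32 and 0.18 in ESC and was not called.

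Secreted cargo of visceral endoderm and fetal liver rose in part. Of 22 such genes 8 were higher and 1 lower (median 0.53), and of 25 genes of lipid transport 10 were higher and 3 lower (median 0.42). Mttp, which loads lipid onto apolipoprotein B, read 3.15, 2.49 and 2.21 in Diff and -5.18, -5.64 and -4.23 in ESC (7.63 ± 0.32, 1 ESC array well above background), and Apob itself rose by 3.14 ± 0.61, also with 1 ESC array well above background. Ttr, a carrier of thyroid hormone and retinol-binding protein, was at least 85.8-fold higher, and the fibrinogen chain Fgb rose by 5.30 ± 0.90 with 2 ESC arrays well above background, whereas the differences of Fga and Fgg were -0.42 ± 0.40 and -0.24 ± 0.67, neither of them called. Afp, alpha-fetoprotein, read -1.17, -3.35 and -2.68 in Diff, at least 4.88-fold higher than in ESC, but was not called with another background correction (limma adjusted p = 0.201). Apoe read 8.21, 7.78 and 7.70 in Diff and 7.23, 7.21 and 7.23 in ESC, a difference of 0.67 ± 0.43 that was not called (limma adjusted p = 0.22) although the groups did not overlap. Pltp and Lpl, a lipid transfer protein and a lipase, fell by 4.13 ± 0.42 and 4.08 ± 0.73.

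Basement membrane genes held the largest called difference. Col4a1 and Col4a2 encode the alpha chains that form the usual collagen IV heterotrimer. Col4a1 read 8.48, 7.46 and 7.51 in Diff, against -5.85, -5.24 and -4.47 in ESC, of which 1 array was well above background, with a fitted difference of 13.00 ± 0.80 (limma adjusted p = 1.3e-11). Col4a2 read 8.08, 7.03 and 7.08 in Diff and -3.41, -3.53 and -4.28 in ESC, all 6 arrays being well above background, with a difference of 11.14 ± 0.54 (limma adjusted p = 4.6e-13). Both were highest on Diff 1 and almost equal on Diff 2 and Diff 3. The genes lie head to head, and their promoter windows, from 250 bases before to 50 after each start, are shown because they overlap. They are RefSeq sequences of build GRCm38.p6, for Col4a1 chr8:11312777-11313076 on the minus strand and for Col4a2 chr8:11312555-11312854 on the plus strand, each written 5′ to 3′, with capitals for the 78 bases that both windows share, read from opposite strands.
Col4a1: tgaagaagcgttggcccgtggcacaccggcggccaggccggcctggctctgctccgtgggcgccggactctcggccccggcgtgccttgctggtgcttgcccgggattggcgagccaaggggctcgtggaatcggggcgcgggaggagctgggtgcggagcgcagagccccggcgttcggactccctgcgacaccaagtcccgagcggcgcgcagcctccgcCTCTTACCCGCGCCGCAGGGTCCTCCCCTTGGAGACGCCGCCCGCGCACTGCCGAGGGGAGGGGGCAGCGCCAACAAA
Col4a2: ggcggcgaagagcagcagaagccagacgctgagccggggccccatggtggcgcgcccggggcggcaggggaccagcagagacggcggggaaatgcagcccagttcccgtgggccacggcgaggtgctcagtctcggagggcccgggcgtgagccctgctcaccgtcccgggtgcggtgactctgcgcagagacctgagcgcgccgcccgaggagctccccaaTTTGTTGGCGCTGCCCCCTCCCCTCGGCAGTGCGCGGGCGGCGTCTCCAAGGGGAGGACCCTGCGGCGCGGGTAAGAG
The annotated starts, 11312826 for Col4a1 and 11312805 for Col4a2, lie 21 bases apart. Given the strands, each start lies inside the other gene, so the annotated 5′ ends overlap and leave no gap. Both strands were searched for simple forms of sites bound by GATA, forkhead and HNF4 factors, and neither window holds any of them. Over 20 windows of 17 matched genes with the largest rises, the GATA form AGATAA, on the other strand TTATCT, stood in 2 (10%), against 11.2% of the 32851 windows in the table. The forkhead form TGTTTAC, on the other strand GTAAACA, stood in 1 (5%), against 3.65% of all windows. The HNF4 form CAAAGTCCA, on the other strand TGGACTTTG, stood in none, against 0.475% of all windows.

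The rise was selective within the basement membrane. Of 24 such genes, 11 were higher and 2 lower, with a median difference of 0.44. The laminin-111 chains Lama1, Lamb1 and Lamc1 rose by 3.30 ± 0.36, 7.05 ± 0.43 and 2.67 ± 0.29, with Lamb1 at 9.05, 8.44 and 8.25 in Diff and 1.14, 1.47 and 1.99 in ESC. The heparan sulfate proteoglycan Hspg2 rose by 2.67 ± 0.20 and the collagen-binding protein Sparc by 2.42 ± 0.33. Lamc1, Hspg2 and Sparc were chosen after their values were seen. The other collagen IV chains on the list, Col4a4, Col4a5 and Col4a6, had differences of 0.22 ± 0.40, 0.12 ± 0.40 and 0.53 ± 0.35, and the linker Nid1 one of -0.56 ± 0.55, none of them called. Fbln1, a matrix glycoprotein, fell by 3.41 ± 0.48. Lamb3, a chain of another laminin, was called (3.24 ± 1.04) with -5.62, -1.11 and -7.47 in ESC, so its groups overlapped, and not without ESC 1 or ESC 3 (limma adjusted p 0.0635 and 0.146). In the authors' processed values, where 18 of the 24 were tested, 5 were higher.

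Of 22 genes that modify collagen, 14 were higher and 2 lower (median 1.22). The collagen chaperone Serpinh1 read 7.11, 6.45 and 6.67 in Diff and -0.15, 0.73 and 0.90 in ESC (6.25 ± 0.43). The prolyl hydroxylases P3h2 and P4ha2 rose by 5.10 ± 0.76 (2 ESC arrays well above background) and 4.60 ± 0.44, the protease Bmp1 by 4.44 ± 0.38 and the lysyl hydroxylase Plod2 by 4.10 ± 0.30. Among 23 genes of the secretory pathway and endoplasmic reticulum stress, 17 were higher and 4 lower (median 1.04). Creb3l1, a membrane-bound factor of secretory genes, read 4.14, 4.08 and 4.32 in Diff and -0.67, -1.13 and 0.17 in ESC (4.72 ± 0.42), and Xbp1, a factor of the unfolded protein response, rose by 2.33 ± 0.24. The 4 that fell, Trib3 (-3.16 ± 0.63), Chac1 (-2.91 ± 0.94), Asns (-1.78 ± 0.21) and Atf4 (-1.03 ± 0.22), are genes of the amino acid response, in which Atf4 is the transcription factor. Chac1 was not called without Diff 1 (-2.56, limma adjusted p = 0.0633), nor Atf4 with median centring (-0.67, limma adjusted p = 0.125).

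Parietal and visceral endoderm genes were both present in Diff. Of 16 parietal endoderm genes, 13 were higher and 1 lower (median 4.29). Col4a1, Lama1, Lamb1, Sparc, Fst and Pdgfra stand on this list and on that of further primitive endoderm genes. Amn, Cubn and Lrp2 stand on the latter and on the visceral list. Counts of these lists, here and below, are therefore not separate results. Pth1r, the receptor for parathyroid hormone related protein, read 6.82, 4.81 and 5.17 in Diff and -5.30, -6.24 and -4.67 in ESC (11.00 ± 0.52, 1 ESC array well above background). Srgn read 8.55, 8.23 and 8.25 in Diff and -0.79, -0.55 and -0.60 in ESC. Vim, the intermediate filament protein vimentin and the exception, read 0.93, 1.31 and 2.29 in Diff and 4.25, 3.68 and 3.59 in ESC, a fall of 2.33 ± 0.59 (limma adjusted p = 0.0026). Ihh, a hedgehog ligand of visceral endoderm, read 5.76, 4.48 and 4.74 in Diff and -3.49, -4.31 and -3.68 in ESC (8.82 ± 0.57, 2 ESC arrays well above background).

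Epithelial genes rose and mesenchymal genes mostly did not. Of 32 junction, keratin and polarity genes, 21 were higher and none was lower (median 1.84), while of 17 mesenchymal genes 2 were higher and 5 lower (median -0.61, and -0.39 without Diff 3). The desmosomal cadherin Dsc2 was at least 44.1-fold higher, the claudins Cldn6 and Cldn7 rose by 6.72 ± 0.71 (2 ESC arrays well above background) and 5.41 ± 0.60, the keratin Krt18 by 6.50 ± 0.49 and the scaffold Pdzk1 by 6.61 ± 0.40. E-cadherin, Cdh1, read 5.08, 4.64 and 4.75 in Diff and 4.05, 3.95 and 3.96 in ESC, a difference of 0.84 ± 0.57 that was not called (limma adjusted p = 0.25). Zeb1, a repressor of epithelial genes, fell by 4.51 ± 0.60 with 2 Diff arrays well above background, and fibronectin, Fn1, by 3.43 ± 0.44. Snai1, also a repressor of epithelial genes and on the parietal list as well, rose by 4.15 ± 0.51.

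**Figure D3:**
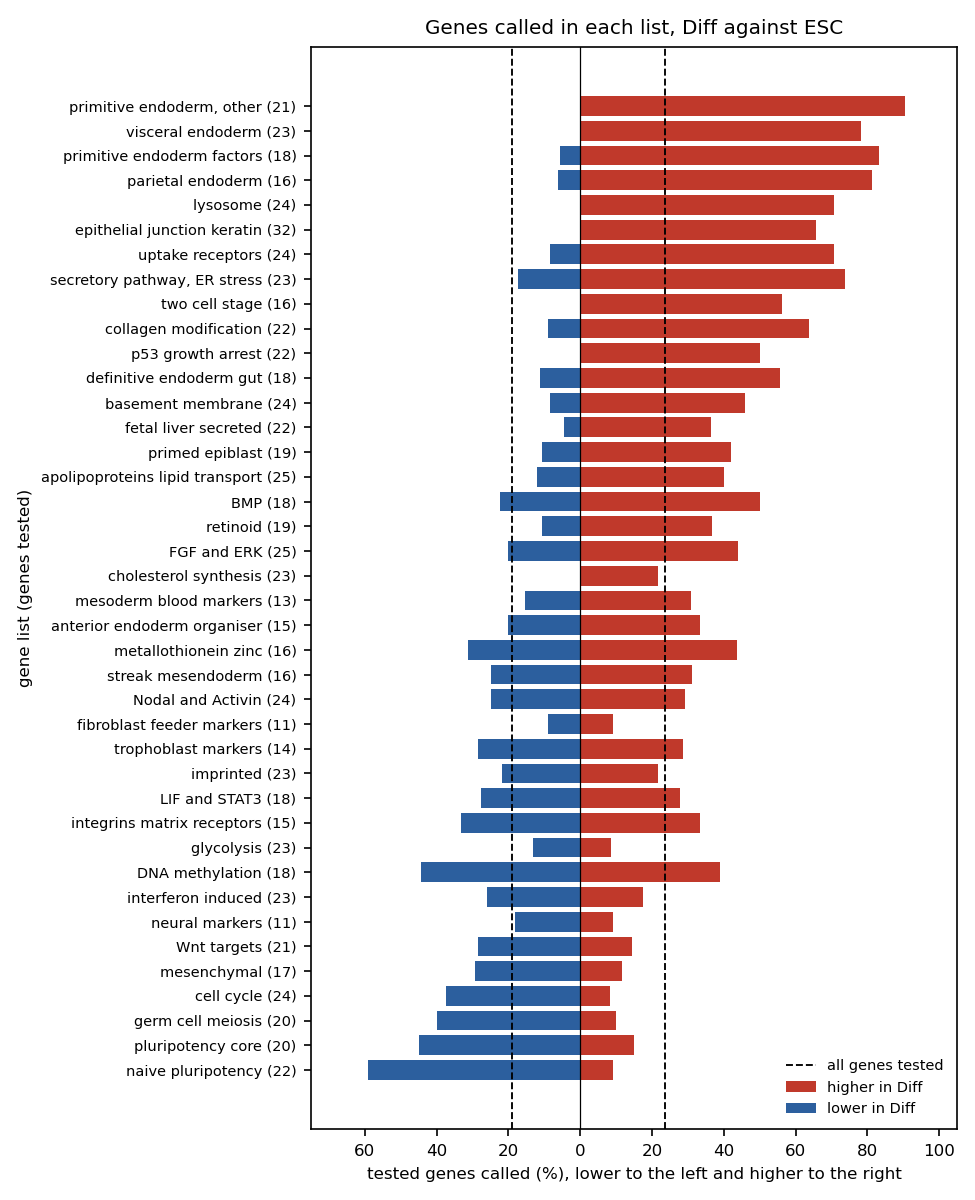
For each of 40 gene lists (number of genes tested in brackets), the bars give the percent called higher in Diff (red, to the right) and lower (blue, to the left), and the dashed lines the same shares over all genes tested, 23.5% and 18.9%. The endoderm, lysosome, epithelial and uptake lists exceed the dashed line to the right, and the naive pluripotency list exceeds it most to the left.

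Naive pluripotency genes fell, but not all of them. Of 22 tested, 13 were lower and 2 higher, with a median difference of -2.42. Nanog read -2.40, -0.29 and 1.20 in Diff and 4.28, 4.19 and 4.00 in ESC, a fall of 4.65 ± 0.77 (limma adjusted p = 3.3e-05). Esrrb, a nuclear receptor of the naive network, read 2.30, 3.86 and 5.31 in Diff and 6.96, 7.18 and 6.90 in ESC (-3.19 ± 0.57). Klf2, a Krüppel-like factor of the same network, read 0.64, 2.16 and 3.54 in Diff and 5.48, 5.59 and 5.72 in ESC (-3.48 ± 0.68). In all 3 the Diff values were lowest on array 1, highest on array 3 and below every ESC array. Prdm14, a repressor of differentiation genes, fell by 3.64 ± 0.69, Nr5a2, a nuclear receptor, by 4.64 ± 0.54, Tfcp2l1, a target of LIF signalling, by 3.08 ± 0.45 and Zfp42 by 1.93 ± 0.51.

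Several naive genes stayed bright. Klf4, which LIF sustains, read 5.01, 4.25 and 4.57 in Diff and 4.89, 4.97 and 4.86 in ESC (-0.30 ± 0.28, limma adjusted p = 0.42). Tbx3, a T-box factor also expressed in extraembryonic endoderm, read 5.16, 5.51 and 5.65 in Diff and 5.23, 5.62 and 5.57 in ESC (-0.03 ± 0.62, limma adjusted p = 0.97). Dppa5a, an RNA-binding protein, read 8.84, 8.53 and 8.78 in Diff and 8.80, 8.52 and 7.99 in ESC (0.28 ± 0.40). The groups overlapped for all 3, which does not show that they were equal. Klf5 was called higher (0.80 ± 0.27), though not without ESC 3, Diff 1 or Diff 3 (limma adjusted p 0.0539 to 0.0913), and Manba, a lysosomal mannosidase on this list, rose by 1.56 ± 0.31. Nr0b1, an orphan receptor, read 0.93, 4.02 and 4.31 in Diff and 3.04, 3.57 and 3.71 in ESC, so that Diff 1 lay below and the other Diff arrays above every ESC array.

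The core pluripotency genes split. Of 20, 9 were lower and 3 higher (median -0.23). Pou5f1, which encodes OCT4, read 4.06, 4.97 and 4.94 in Diff and 5.90, 5.84 and 5.90 in ESC, a difference of -1.22 ± 0.43 (limma adjusted p = 0.026). Its call was lost without any ESC array (limma adjusted p 0.0538 to 0.0596) and without Diff 1 (-0.93, limma adjusted p = 0.136). Sox2, its DNA-binding partner, read -1.35, 0.89 and 1.82 in Diff and 3.65, 3.58 and 3.63 in ESC (-3.17 ± 0.74), not called with slide as a block (limma adjusted p = 0.0566). Lin28a, an RNA-binding protein that blocks let-7 maturation, read 4.73, 4.38 and 4.44 in Diff and 1.26, 0.71 and 0.77 in ESC, a rise of 3.61 ± 0.29 (limma adjusted p = 7.8e-10). Sall4, a factor shared with extraembryonic endoderm, read 4.21, 3.61 and 3.87 in Diff and 3.50, 3.20 and 3.32 in ESC and was not called (0.56 ± 0.29, limma adjusted p = 0.13). Utf1, a chromatin factor, was called higher (1.34 ± 0.51) but not without ESC 2, ESC 3, Diff 2 or Diff 3 (limma adjusted p 0.0614 to 0.176).

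Primed epiblast genes rose in part. Of 19, 8 were higher and 2 lower (median 0.59). That median was 1.04 without Diff 1, 0.98 without ESC 1 and 0.22 with the first scan day's arrays alone, a choice made after seeing the data. Fgf5, a marker of the postimplantation epiblast, read -5.38, -1.99 and -1.72 in Diff, with arrays 2 and 3 well above background, and -6.41, -6.36 and -7.60 in ESC, at least 3.15-fold higher. With the first scan day's arrays alone it was not called (limma adjusted p = 0.0704). Sox3, a SOX factor of epiblast and neural cells, read -2.41, -1.29 and -0.58 in Diff and -4.97, -5.16 and -5.32 in ESC, at least 9.55-fold higher. Otx2, a factor of the exit from naive pluripotency, read 0.53, 1.98 and 2.43 in Diff and 1.82, 1.00 and 0.34 in ESC and was not called (0.59 ± 0.81, limma adjusted p = 0.58).

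The enzymes of DNA methylation moved in opposite directions. Of 18 genes, 7 were higher and 8 lower (median -0.28). Dnmt3l, the cofactor of the de novo enzymes, read 6.47, 6.47 and 6.19 in Diff and 2.51, 2.01 and 1.50 in ESC (4.37 ± 0.60), the de novo enzyme Dnmt3b read 6.23, 6.81 and 6.55 in Diff and 3.53, 3.37 and 3.27 in ESC (3.14 ± 0.38), and Dnmt3a rose by 2.25 ± 0.40. Uhrf1, which brings the maintenance enzyme to replicated DNA, read 3.41, 4.26 and 4.62 in Diff and 6.63, 6.63 and 6.32 in ESC (-2.43 ± 0.28). The oxidases Tet1 and Tet2 fell by 2.19 ± 0.39 and 1.84 ± 0.32, and Zfp57, which protects imprints, by 2.53 ± 0.36. In the authors' processed values, where 8 of the 18 were tested, 2 were higher, and with median centring 5 of 18 were lower.

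Among Nodal and Activin genes, 7 of 24 were higher (29.2%) and 6 lower (25%), with a median of -0.10. These counts lay near the shares over all genes, 23.5% and 18.9%. Nodal itself, the ligand, read 0.80, 3.40 and 4.04 in Diff and 3.82, 3.74 and 3.67 in ESC and was not called (-1.0 ± 0.49, limma adjusted p = 0.11). Its coreceptor Tdgf1 fell by 2.32 ± 0.40 and the related ligand Gdf3 by 2.22 ± 0.29. Lefty1, a secreted Nodal inhibitor and target, read -1.17, 3.02 and 3.74 in Diff and -0.37, -1.90 and -1.97 in ESC, so the groups overlapped. It was called (3.27 ± 1.10, limma adjusted p = 0.019), but not without ESC 2, ESC 3, Diff 2 or Diff 3 (limma adjusted p 0.0625 to 0.125). Lefty2, its neighbour and relative, read -0.46, 3.63 and 4.51 in Diff and 2.60, 2.10 and 2.06 in ESC (0.30 ± 0.74, not called). On Diff 1 both inhibitors and Nodal were low, and on Diff 2 and Diff 3 both inhibitors were above every ESC array. Pmepa1, a feedback inhibitor, rose by 3.08 ± 0.31, the convertase Furin by 2.29 ± 0.31 and the effector Smad2 by 1.62 ± 0.21, whereas the effector Smad3 fell by 1.86 ± 0.29.

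FGF and ERK genes showed a change of receptors. Of 25, 11 were higher and 5 lower (median 0.98). Fgfr1 read -0.41, 1.44 and 2.04 in Diff and 3.69, 3.89 and 3.97 in ESC (-2.83 ± 0.52). Fgfr3 read 1.20, 2.56 and 1.64 in Diff and -3.39, -4.04 and -3.57 in ESC (5.47 ± 0.49), and Fgfr4 read 3.62, 3.35 and 2.76 in Diff and -0.69, -0.70 and -0.99 in ESC (4.04 ± 0.40). The groups did not overlap for any of the 3 receptors. Klb, a coreceptor for endocrine FGFs, rose by 5.54 ± 0.39 and Fgfr2 by 0.98 ± 0.20, while the ligand Fgf4 fell by 3.92 ± 0.95. Of the genes that ERK induces, the phosphatase Dusp4 rose by 5.90 ± 0.48 and Dusp6 by 1.45 ± 0.29, whereas the factors Etv5 and Etv1 fell by 2.02 ± 0.48 and 2.49 ± 0.60. The call of Etv5 was lost with slide as a block (limma adjusted p = 0.0589). Egr1, an immediate early gene, read 3.76, -0.18 and -0.35 in Diff and -6.19, -6.22 and -4.28 in ESC (6.64 ± 0.74, 1 ESC array well above background), and was far higher on Diff 1 than on the other Diff arrays. Spry2 and Etv4 had differences of 0.36 ± 0.38 and 0.93 ± 0.58, neither called.

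Genes of Wnt, LIF and BMP signalling changed without a direction common to these lists. Over all genes 23.5% were higher and 18.9% lower. Of 21 Wnt targets, 3 were higher (14.3%) and 6 lower (28.6%), with a median of -0.28. Sp5, a direct target, read -3.56, -3.46 and -2.09 in Diff and 3.25, 2.90 and 1.47 in ESC (-5.58 ± 1.00). The homeobox gene Cdx1 fell by 4.77 ± 0.56. Axin2, a feedback target, read -2.59, -3.45 and -2.74 in Diff and -1.33, -1.80 and -3.20 in ESC and was not called (-0.82 ± 0.92). Of 18 LIF and STAT3 genes 5 were higher and 5 lower (27.8% each, median 0.13). The oncostatin receptor Osmr and the inhibitor Socs1 rose by 5.11 ± 0.45 (1 ESC array well above background) and 3.45 ± 0.40, the kinase Pim1 fell by 4.40 ± 0.43, and the inhibitor Socs3 was not called (-0.42 ± 0.42). Of 18 BMP genes 9 were higher (50%, above the share over all genes) and 4 lower (22.2%), with a median of 0.59. Bmp2 and Bmp6, ligands, rose by 5.92 ± 0.54 and 6.41 ± 0.67, Bmp6 with 1 ESC array well above background, and the targets Id1 and Id2 by 3.34 ± 0.60 and 4.13 ± 0.47, while the ligand Bmp7 and the target Id4 fell by 4.33 ± 0.75 and 5.09 ± 0.87, each with 2 Diff arrays well above background.

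Genes of the primitive streak and of definitive endoderm did not rise together. Of 16 streak and mesendoderm genes, 5 were higher (31.25%, against 23.5% of all genes) and 4 lower (25%, against 18.9%), with a median of -0.08. T, the streak factor brachyury, was well above background on no Diff array and at -1.61, -2.12 and -3.69 in ESC, at least 4.26-fold lower. With another background correction or the authors' processed values that call was lost (limma adjusted p = 0.323 and 0.218). Mixl1, a streak homeobox gene, was well above background on 1 ESC array and on no Diff array. Eomes, a T-box factor of streak and trophoblast, rose by 2.03 ± 0.36. Gsc, an organiser gene, read -6.59, -5.38 and -3.56 in Diff and 0.29, -0.39 and -0.28 in ESC (-5.05 ± 0.52, 1 Diff array well above background). Cer1, a secreted inhibitor of anterior endoderm, was well above background on 1 array of each group and was not called (0.71 ± 0.64). Of 18 genes of definitive endoderm and gut, 10 were higher and 2 lower (median 2.95), and the members that rose include Sox17, Foxa1, Foxa2, Foxa3, Gata4 and Gata6, which stand on the primitive endoderm list as well. Cxcr4, a chemokine receptor of definitive endoderm, was at least 2.69-fold higher, with -2.60, -3.89 and -3.29 in Diff, but not called with another background correction (limma adjusted p = 0.258). Kit, a receptor kinase, fell by 2.43 ± 0.42. Cdx2 rose by 3.40 ± 1.09, but was not called without Diff 1 (2.91, limma adjusted p = 0.0661).

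Markers of other cell types that a whole culture could hold were mixed. Of 14 trophoblast markers 4 were higher and 4 lower (28.6% each, against 23.5% and 18.9% of all genes). Their mean level was -2.02 to -1.23 on the Diff arrays and -2.16 to -2.08 on the ESC arrays. Of 13 mesoderm and blood markers 4 were higher and 2 lower (-2.24 to -1.94 in Diff and -3.38 to -3.09 in ESC), and of 11 neural markers 1 was higher and 2 lower (-2.75 to -2.19 in Diff and -2.55 to -2.0 in ESC). Of 11 fibroblast markers 1 was higher and 1 lower (-4.74 to -3.88 in Diff and -4.22 to -3.88 in ESC). Prrx1 and Postn, which mark fibroblasts, were well above background on no array of either group, as was Map2 among the neural markers. Among the members that rose, Cdh5 of endothelium was at least 17.3-fold higher, Hand1 at least 3.56-fold (not called with another background correction, limma adjusted p = 0.16), Plac1 of placenta at least 9.82-fold and Tbx1 rose by 6.19 ± 0.67 with 1 ESC array well above background. Not well above background on any array were 1 trophoblast, 2 mesoderm and blood, 1 neural and 3 fibroblast markers in Diff, and 2, 4, 1 and 3 of them in ESC. The part of such cells in the results above was not tested.

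Of 24 cell cycle genes 9 were lower and 2 higher (median -0.29), among them the replication helicase subunits Mcm5 (-1.20 ± 0.24) and Mcm7 (-1.17 ± 0.24), and with median centring 1 of the 24 was lower. The D cyclins exchanged: Ccnd2 was at least 45.5-fold higher, with 2.45, 0.40 and -0.29 in Diff and no ESC array well above background, and Ccnd1 read -2.98, -0.77 and 0.60 in Diff and 2.92, 2.18 and 0.95 in ESC (-3.07 ± 0.71). The proliferation marker Mki67 had a difference of 0.37 ± 0.20 that was not called. Of 22 genes of the p53 response and growth arrest, 11 were higher and none was lower (median 0.75), led by Gadd45g (4.53 ± 0.40) and the apoptosis gene Pmaip1 (3.26 ± 0.38), while the p53 target Cdkn1a was not called (-0.22 ± 0.32). Of 23 glycolysis genes 2 were higher and 3 lower (median 0.01), with the lactate dehydrogenase chain Ldhb at 1.64, 2.75 and 3.65 in Diff and 6.55, 6.70 and 6.99 in ESC (-4.07 ± 0.58).

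Among genes well above background on all 6 arrays, the largest falls included those of Oas1a (-6.63 ± 0.71), an enzyme of the interferon response, the myeloid factor Spic (-6.45 ± 0.76), Gm13889 (-6.32 ± 0.54) and Mt2 (-6.18 ± 0.50). Mt2, a zinc-binding metallothionein, read 2.65, 2.77 and 2.93 in Diff and 9.05, 9.02 and 8.79 in ESC, and Mt1 fell by 4.46 ± 0.53. Of 16 genes of zinc handling 7 were higher and 5 lower (median 0.64). The zinc importers Slc39a8 and Slc39a14 rose by 7.70 ± 0.54 and 5.52 ± 0.46, with 1 and 2 ESC arrays well above background, the exporter Slc30a1 fell by 2.53 ± 0.58, and the zinc-sensing factor Mtf1 was not called (0.56 ± 0.23, limma adjusted p = 0.051). Of 23 interferon-induced genes 4 were higher (17.4%, against 23.5% of all genes) and 6 lower (26.1%, against 18.9%), with a median of 0.23. B2m, a subunit of MHC class I, was up by 4.71 ± 0.30 and Ifitm1 down by 3.34 ± 0.76. Among genes well above background on no Diff array, the largest bounds were those of the membrane protein Mal, at least 39.5-fold lower, Lrrc15, at least 35.5-fold, and the fucosyltransferase Fut10, at least 33.4-fold.

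Other lists were mixed, and some of their counts lay near the shares over all genes, 23.5% higher and 18.9% lower. Of 19 retinoid genes 7 were higher and 2 lower (median 0.78, and 0.36 without Diff 3). Cyp26a1, which degrades retinoic acid, rose by 7.71 ± 0.85 with 2 ESC arrays well above background, Rdh10, which makes its precursor, by 4.36 ± 0.35, and Stra6, a receptor for retinol-binding protein, was at least 15.0-fold higher. Aldh1a3, an enzyme that makes retinoic acid, was at least 6.72-fold lower. Of 15 integrins and matrix receptors 5 were higher and 5 lower (median 0.15), with the fibronectin receptor chain Itga5 up by 3.05 ± 0.40 and the laminin receptor chains Itga6 and Itga7 down by 1.87 ± 0.33 and 2.02 ± 0.31. Of 23 imprinted genes 5 were higher and 5 lower (21.7% each, median 0.15), near the shares over all genes. Peg3, expressed from the paternal allele, read 0.99, 1.14 and 0.43 in Diff and -3.30, -2.65 and -3.14 in ESC (3.88 ± 0.40). The maternal noncoding RNA Meg3 read 0.32, 1.77 and 1.88 in Diff and 6.51, 5.53 and 4.17 in ESC (-4.08 ± 0.63). Without Diff 3, 8 imprinted genes were higher. Of 20 germ cell genes 2 were higher and 8 lower (median -0.77), among them the RNA-binding protein Dazl (-2.39 ± 0.47), and 5 were lower without ESC 2. Of 23 genes of cholesterol synthesis 5 were higher (21.7%, near the share over all genes) and none was lower (median 0.64). Those higher include Ebp (1.60 ± 0.25) and Sc5d (1.50 ± 0.25), enzymes of its late steps. Without Diff 1, 8 were higher, and 3 without ESC 1 or without Diff 2.

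The 3 Diff arrays differed from each other more than the ESC arrays did. The median SD over genes was 0.32 in Diff and 0.22 in ESC, and over the naive pluripotency list it was 0.76 in Diff and 0.16 in ESC. On Diff 1, 18 of the 22 naive genes had their lowest Diff level, against 38.4% of all genes and 51.1% of the genes called lower. On Diff 3, 16 had their highest. The mean level of that list was 1.38, 2.45 and 3.15 on Diff 1, 2 and 3. Some other lists, not only of endoderm, ran the other way. Highest on Diff 1 were 15 of 16 parietal, 15 of 21 further primitive endoderm and 19 of 24 lysosomal genes. So were 19 of 23 glycolysis genes and 22 of 32 epithelial genes. The share was 37.0% of all genes and 52.4% of the genes called higher. The mean level of the primitive endoderm factors was 2.76, 2.51 and 2.66. Of 23 visceral endoderm genes 13 were highest on Diff 1 (56.5%), and of 18 definitive endoderm genes 9 (50%), near the share of the genes called higher. The anterior endoderm and organiser list ran as the naive list did, with 10 of 15 genes lowest on Diff 1 and 11 highest on Diff 3. Of 24 cell cycle genes 20 were lowest on Diff 1, and of 23 cholesterol synthesis genes 20. These counts describe single arrays and were not tested, and since each Diff array lay on a slide of its own, array and slide cannot be told apart.

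**Figure D4:**
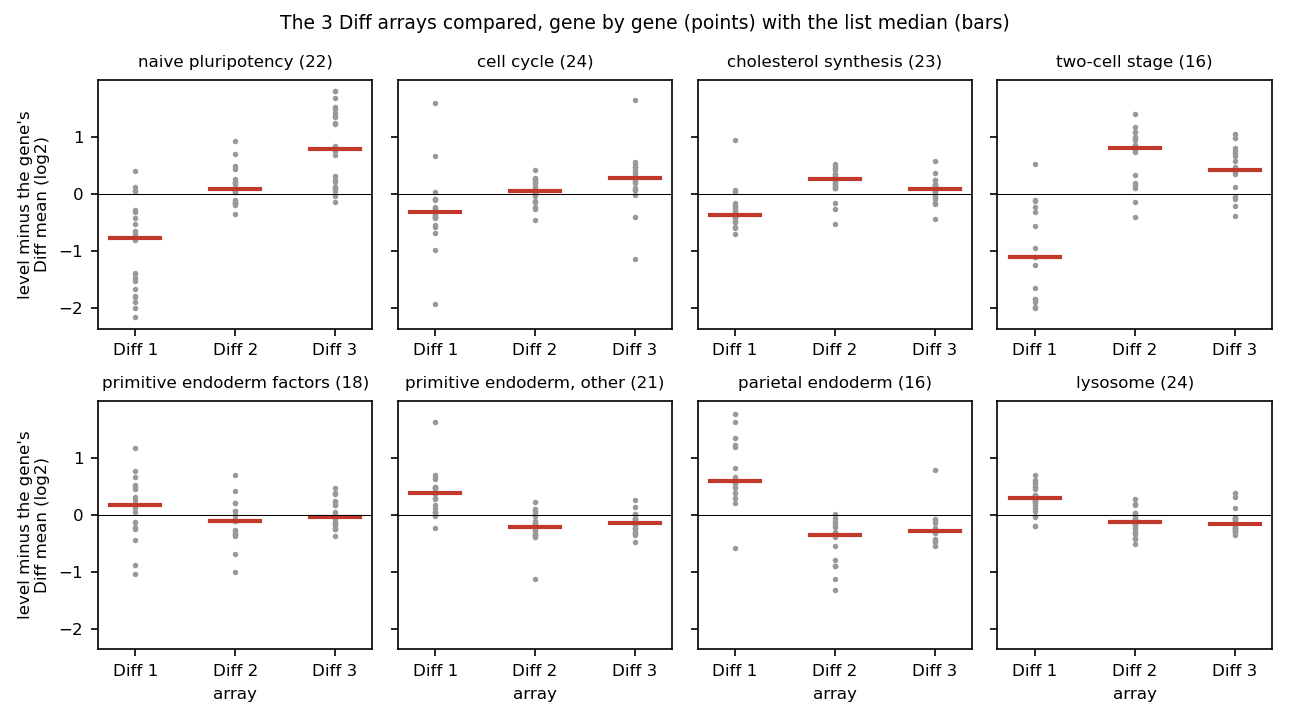
For 8 gene lists, each point is a gene's level on a Diff array minus its mean over the 3 Diff arrays (log2), and bars are list medians. Naive pluripotency medians are -0.77 on Diff 1 and 0.80 on Diff 3, and parietal endoderm genes lie at 0.59 on Diff 1 against -0.35 and -0.30 on Diff 2 and Diff 3.

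The Diff arrays also lay at different distances from the passaged endoderm cultures derived from such cells, called Mid. The root mean square difference over all genes from the Mid mean was 1.10 for Diff 1, 1.34 for Diff 2 and 1.44 for Diff 3, and from the ESC mean it was 1.81, 1.62 and 1.60. Diff 1 was thus nearest to Mid and farthest from ESC. Genes of the 2-cell embryo were, like the naive list, mostly lowest on Diff 1, but more were highest on Diff 2 than on Diff 3. Of 16, 9 were higher and none was lower (median 3.03). Lowest on Diff 1 were 13, while 10 were highest on Diff 2 and 5 on Diff 3. Zscan4f, a telomere factor of that stage, read 3.20, 5.83 and 5.51 in Diff and -3.91, -0.78 and -0.03 in ESC (6.42 ± 1.30), and Zscan4a and Zscan4c, close copies whose probes may share targets with it, rose by 6.43 ± 1.25 and 5.36 ± 0.96, Zscan4a with 2 ESC arrays well above background. Tmem92 rose by 5.96 ± 1.03 and Tcstv3 by 5.30 ± 1.02, each with 1 ESC array well above background, whereas Zfp352 and Sp110, also on the list, were not called (-0.37 ± 0.36 and 0.25 ± 0.22).

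Endoderm obtained from primed rather than naive cells provides the first comparison of the change itself. Diff minus ESC differed from ADE minus EpiSC for 36.7% of genes tested, 21.9% in the positive and 14.9% in the negative direction. The difference of differences was positive for 18 of 21 further primitive endoderm genes, 12 of 16 parietal genes and 15 of 24 uptake genes, and negative for 9 of 15 anterior endoderm and organiser genes and 11 of 24 Nodal and Activin genes. Col4a1 changed by 13.00 in Diff minus ESC and 2.87 in ADE minus EpiSC (10.13 ± 1.09, limma adjusted p = 1.9e-07). Lrp2 moved in opposite directions, by 9.40 and -3.40. Gata6 changed by 9.94 and 6.05 (3.89 ± 0.83, limma adjusted p = 0.00071) and Sox17 by 11.46 and 4.71 (6.74 ± 0.61, limma adjusted p = 1.5e-08), with ESC below background for Sox17. The larger changes did not go with much higher end levels. Mean levels in Diff and ADE were 4.94 and 4.35 for Gata6 and 4.65 and 4.84 for Sox17. Sox17 started from -6.80 in ESC and 0.12 in EpiSC, and Gata6 was also lower in ESC than in EpiSC, where its mean was -1.70. These levels come from different array sets and were not tested against each other. For Gata4, the changes of 6.61 and 6.01 could not be separated (0.60 ± 0.56, limma adjusted p = 0.43), nor for Hnf4a those of 6.06 and 7.48 (-1.42 ± 0.81, limma adjusted p = 0.18).

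On the other side stood genes of anterior and streak-derived endoderm. Cer1 changed by 0.71 in Diff minus ESC and 6.54 in ADE minus EpiSC (-5.83 ± 0.87, limma adjusted p = 1.4e-05), Hhex by 0.53 and 6.05 (-5.52 ± 0.55), the homeobox gene Lhx1 by -0.40 and 5.62 (-6.02 ± 0.47) and Kit by -2.43 and 4.90 (-7.33 ± 0.57). With median centring the positive share of the called differences was 73.6%, against 59.5% in the main scaling. The changes of Eomes, 2.03 and 3.06, were not separated (-1.03 ± 0.50, limma adjusted p = 0.11). Each change was measured within its own array set, and slides, scan days and software versions all differ between the sets.

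**Figure D5:**
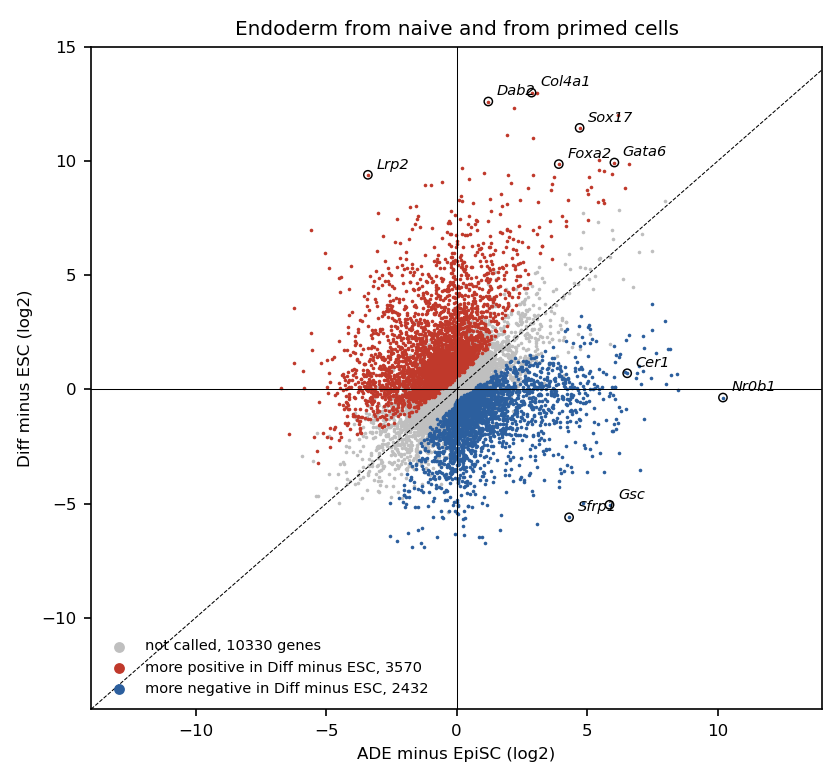
Each point is a gene: the y axis is Diff minus ESC and the x axis ADE minus EpiSC (log2), and the dashed diagonal marks equal change. Colours mark the 3570 genes with a more positive and the 2432 with a more negative change in Diff minus ESC by the test of the difference. Primitive endoderm genes such as Col4a1, Dab2 and Lrp2 lie above the diagonal, and Cer1, Gsc and Sfrp1 below it.

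NACL cells, which were also kept in Activin, CHIRON and LIF and whose labels name no endoderm, provide the second comparison. The labels give their base medium as N2B27 and that of Diff only as nEnd medium, and the lines and the time in culture differ as well. Diff minus ESC differed from NACL minus 2iL for 30.3% of genes tested, 17% positive and 13.3% negative. The model held no term for line, although NACL and 2iL hold the same lines, so differences between lines are part of the spread within both. The positive share of the called differences was 56.2%, and 79.3% with median centring. The difference was positive for 20 of 21 further primitive endoderm genes, 14 of 18 primitive endoderm factors, 17 of 24 uptake genes, 17 of 24 lysosomal genes and 16 of 32 epithelial genes. Gata4 changed by 6.61 in Diff minus ESC and 0.52 in NACL minus 2iL (6.09 ± 0.56, limma adjusted p = 3.6e-08), Gata6 by 9.94 and 2.82 (7.12 ± 0.83) and Nanog by -4.65 and -0.59 (-4.07 ± 1.06, limma adjusted p = 0.0051). The naive list had 8 of 22 genes on the negative side and none on the positive side. For other genes the change in NACL was larger or could not be separated. Fgf5 changed by 3.76 and 3.15 (0.61 ± 1.07, limma adjusted p = 0.72), with no ESC or 2iL array well above background, and Dusp6 by 1.45 and 2.89 (-1.45 ± 0.39, limma adjusted p = 0.0070). Dnmt3b changed by 3.14 and 0.25 (2.89 ± 0.52), and Dnmt3l by 4.37 and 1.68 (2.69 ± 0.82).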

How the data were processed

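RNA from whole cultures was labelled with Cy3 and hybridised to Agilent one-colour arrays. Per the file headers, the deposited intensity values (gProcessedSignal) were made with Feature Extraction 11.0.1.1 for the set that holds Diff and ESC and 12.0.1.1 for the other, while the submitters' processing notes name version 9.1. Each array's log2 intensity was set relative to its 75th percentile over probes, control and irregular spots being left out. The authors' deposited table of processed values covers 31982 probes and served as an alternative. Its scale is unstated, and column medians were 5.94 to 5.949 over the 29 arrays.

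Of 55681 probes, 27636 were named by accession through RefSeq (GRCm38.p6), while the headers' build is mm9. A gene was the probe with the highest mean, tested when every array of some group among the 9 measured it well above background, which left 16332 of 20956 genes. One limma model (limma 3.58.1, R 4.3.3) with 9 group means was fitted over all 29 arrays, with Benjamini-Hochberg adjustment. It was tested on simulated data. Array number and signal over background limit the precision. The alternatives were other scalings, filters, backgrounds (normexp with an offset of 50 on the median signal), blocks and arrays left out.

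The comparison, its member arrays (taken by title) and the gene lists were chosen with earlier results of these data known. Genes were named by rule: the 10 largest rises and falls measured in both groups, the 10 largest bounds each way, up to 5 called members of each list each way, any member of the core, naive, primitive endoderm factor, Nodal and FGF lists, the 5 largest differences of differences each way, and the 5 genes with the largest SD in each group. Uncalled members of other lists could be named too, and other names are stated as chosen afterwards. Some genes that meet these rules are not reported here.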

Additional observations from a re-analysis of the deposited data

Results flagged for a closer look

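The results below stand out because the change in Diff minus ESC differed from the change in another pair of groups, by limma's test of the difference itself with Benjamini-Hochberg adjustment. For each pair they come from the 5 largest positive and the 5 largest negative values among eligible genes. Eligible were genes called by that test and well above background on every array of at least 1 group of each pair. Dab2 (13.11) and Naip6 (11.78), for instance, gave larger values against NACL minus 2iL than those listed, but did not meet this condition. What produces them was not tested, and the pairs lie in different array sets.

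Against ADE minus EpiSC, Lrp2 had the largest positive difference among the eligible genes, 12.8 ± 0.66 (SE, limma adjusted p = 3.5e-12). It came from a change of 9.40 in Diff minus ESC and -3.40 in ADE minus EpiSC. The chemokine Cxcl10 gave 12.56 (7.00 and -5.56) and the cytokine Il33 gave 11.03 (5.98 and -5.05), both with no ESC array, and Il33 with 1 ADE array, well above background. Dab2 gave 11.4 (12.61 and 1.22), also from ESC below background, and the ERBB ligand Nrg1 gave 10.74 (7.72 and -3.03). On the negative side, Gsc gave -10.91 ± 0.71 (adjusted p = 1.2e-10), from -5.05 and 5.86, with 1 Diff array well above background. Nr0b1 gave -10.56 (-0.35 and 10.21) and Fam81a gave -10.54 (-3.52 and 7.01), both with no EpiSC array well above background. The secreted Wnt antagonist Sfrp1 gave -9.91 (-5.60 and 4.31) and the GTPase Rab38 gave -9.83 (-4.98 and 4.85), with 1 and 2 Diff arrays well above background.

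Against NACL minus 2iL, the magnesium channel Trpm6 gave 10.5 ± 0.93 (adjusted p = 2.4e-08), from 7.36 in Diff minus ESC and -3.15 in NACL minus 2iL. It was well above background on 2 ESC arrays and on 1 NACL array. Col4a1 gave 10.5 (13.00 and 2.51), Col4a2 gave 9.96 (11.14 and 1.17), the lipid synthesis enzyme Gpat3 gave 9.96 (7.47 and -2.49) and Sox17 gave 9.93 (11.46 and 1.53). Of these, Gpat3 was well above background on 1 NACL array, Col4a1 on 1 ESC array and Sox17 on no ESC array. Mt2 gave -6.305 ± 0.68 (adjusted p = 3.4e-07), from -6.18 and 0.13. Fut10 gave -5.90 (-6.29 and -0.39) with no Diff array well above background. The metal transporter Slc11a1 gave -5.76 (-6.72 and -0.95) and Wdr31 gave -5.70 (-4.77 and 0.92), with 2 and 1 Diff arrays well above background.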

How the results depend on the processing

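The count of genes called in Diff minus ESC, 6923, lay between 5727 (median centring) and 7311 (quantile normalisation) over the alternatives, and between 6101 and 6457 with any of the 6 arrays left out. With the authors' processed values, 5809 of 13092 genes were called. Against ADE minus EpiSC the main count of 6002 lay between 4901 and 6504, and against NACL minus 2iL that of 4942 between 3455 and 5393. With 1 array left out they lay between 5327 and 5650 and between 4284 and 4866. The replicate block called 5922 genes, 5438 of them called without it as well. Deviations of same-numbered samples correlated at 0.085, 0.020 and 0.075, and Diff 2 correlated best with another number, so the numbers were not taken as pairs. Of 306 named genes called, 238 were called in every setting, 68 lost the call in some and 36 with an array left out. The sign turned for Hk1 with the authors' processed values (0.2067, limma adjusted p = 0.596) and for Nkx1-2 with the mean of all probes (0.05909, limma adjusted p = 0.936); the cause was not tested. Counts within lists, where either count was 4 or more, moved by over 1.5 times as follows. With median centring, lower cell cycle genes were 1 rather than 9, germ cell genes 3 rather than 8, DNA methylation genes 5 rather than 8 and Nodal genes 3 rather than 6, and higher cholesterol genes 11 rather than 5. The authors' processed values test fewer genes of a list: there, higher basement membrane genes were 5 of 18 rather than 11 of 24, DNA methylation genes 2 of 8 rather than 7 of 18 and Nodal genes 4 of 18 rather than 7 of 24, and lower FGF genes 2 of 17 rather than 5 of 25, DNA methylation genes 5 of 8 rather than 8 of 18 and imprinted genes 3 of 17 rather than 5 of 23. With 1 array left out, higher anterior endoderm genes were 3 rather than 5 without ESC 2 or Diff 3, higher imprinted genes 8 rather than 5 without Diff 3, lower germ cell genes 5 rather than 8 without ESC 2, and higher cholesterol genes, 5 in all arrays, were 8 without Diff 1 and 3 without ESC 1 or Diff 2. With normexp, lower BMP genes were 2 rather than 4, and the list median was 2.42 rather than 4.49 for primitive endoderm factors, 2.49 rather than 4.39 for visceral endoderm and 0.58 rather than 2.95 for definitive endoderm. With quantile normalisation 5 rather than 3 glycolysis genes were lower, and with median centring 4 rather than 2 were higher. Integrins lower were 3 rather than 5 with the replicate block, with median centring and without Diff 2, and LIF genes lower 3 rather than 5 with median centring. With the first scan day alone, a choice made after seeing the data, imprinted genes higher were 8 and cholesterol genes 3, rather than 5 each, and germ cell genes 4 rather than 2. Signal over background limits the 342 higher and 224 lower genes for which a group was not measured, whose folds are bounds.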

Other observations

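Ddx3y, a Y-linked gene, read 0.86, 0.90 and -2.51 on Diff 1, 2 and 3, and 0.80, -1.13 and -4.12 on ESC 1, 2 and 3. Eif2s3y, also Y-linked and chosen after its values were seen, read 2.13, 2.32 and -0.24 in Diff and 1.20, 0.14 and -1.25 in ESC. Xlr5b, an X-linked gene, read 2.55, 2.84 and -4.13 in Diff and 0.17, -1.94 and -3.96 in ESC. All 3 genes were lowest on array 3 of each group, the arrays read on the second scan day. Ugt3a1, a glycosyltransferase, was bright on ESC 1 alone among the 6 arrays, with -2.92, -3.13 and -3.59 in Diff and 12.33, -2.42 and -3.40 in ESC.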
